A study of Mus musculus with 3 samples.

Results

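The genes described are those of the nuclear-encoded subunits of the mitochondrial oxidative phosphorylation system, read on 3 arrays hybridised with a single dye. The labels call the cells MCECs, primary endothelium of the erectile tissue (corpus cavernosum) of the mouse. They were taken by symbol (Nduf followed by a, b, c, s or v and a digit; Sdha to Sdhd; Uqcr; Cox4 to Cox8; Atp5), which gave 84 of the 20886 genes named on the arrays, read by 113 of 39429 probes. The set may be incomplete, since 11921 probes could not be named through their accessions, and no named probe was matched to Ndufb1, Ndufb4b or Ndufb4c, which the rule would take. By symbol, 37 belong to complex I, 4 to complex II, 8 to complex III, 18 to complex IV and 17 to complex V. The cells came from C57BL/6 mice and were grown in M199 medium with serum, heparin and vascular endothelial growth factor A. The 3 conditions, with 1 array each, were normal glucose (labelled 5 mmol), high glucose (labelled 30 mmol), and the same high glucose plus DKK2 protein (Dickkopf 2, a secreted modulator of Wnt signalling, dose not given in the sources used here), each after 48 h. Each array was hybridised with a pool of RNA from 3 samples. Every value below thus rests on 1 array per condition, there is no replicate check, and no p-value is given. The 3 comparisons share arrays and are therefore not independent of each other.

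Complexes I to IV of the inner mitochondrial membrane pass electrons from NADH and succinate to oxygen, and complexes I, III and IV pump protons as they do so. Complex V, the ATP synthase, lets the protons flow back and makes ATP. Most subunits are encoded in the nucleus and must be made in balance with the few that mitochondrial DNA encodes, which the symbol rule does not take and which were not analysed here. Endothelial cells are known for drawing most of their ATP from glycolysis, and their mitochondria are studied in high glucose chiefly as a source of reactive oxygen species.

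Levels are given as scaled signal, the processed signal of a probe divided by the 75th percentile of its array, which was 1201, 2380 and 2417 on the normal glucose, high glucose and DKK2 arrays. A scaled signal of different probes is not an amount, so levels are compared between arrays and never between genes. A difference is the log2 ratio of 2 scaled signals, and its error is the technical SD from the scanner's error model, 0.20 for a member read on 1 spot, which leaves out variation between cultures. A gene counts as measured in a comparison if both arrays had its probe well above background, and "2-fold higher" or "2-fold lower" means a log2 difference of at least 1 in size.

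As a check of the label, 12 to 14 of 14 endothelial markers were above background, with Pecam1 at scaled signals of 0.112, 0.155 and 0.180 on the normal glucose, high glucose and DKK2 arrays, the order used for all triples of values below. All 7 fibroblast and all 7 smooth muscle markers were above background on every array too, with Dcn at 223, 209 and 144 and Acta2 at 41.3, 21.0 and 6.60. On these arrays 76.6%, 84.7% and 83.9% of all probes were above background, so detection of a short list says little about cell type. Some endothelial markers counted were dim, such as Tie1 and Cldn5 with processed signals of 9.84 and 29.8 in normal glucose. The summed scaled signal of the endothelial markers was 4.88, 7.33 and 7.91 in that order of arrays (mostly Kdr and Egfl7), that of the fibroblast markers 308.1, 302.9 and 205.2, and that of the smooth muscle markers 62.1, 41.6 and 25.1. Marker by marker, all 12 measured endothelial markers were above 0 in high glucose against normal glucose, beside 56.4% of all genes. Their median log2 difference was 0.51. With DKK2 against high glucose the endothelial median was -0.29, and 6 of 13 lay above 0, beside 57.6% of all genes. Tek, Robo4, Icam2 and Cldn5 were 2-fold lower (4.85% of all genes) with none 2-fold higher (5.08%), opposite to the sum. The processed signals of these markers with DKK2 were low, at 54.3, 176, 204 and 74.0. How the cells divide among these types was not measured, and more cells of a type cannot be told apart from more RNA per cell.

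Promoters of the respiratory chain genes are known for binding sites of NRF1 and of ETS factors such as GABP. RefSeq promoter windows (build GRCm38.p6, 300 bases each, most of it before the start) were found for 68 of the 84 genes. The NRF1 core GCGCATGC, searched on both strands, occurred in 10 of 68 members (14.7%) and in 4.14% of the 16551 array genes with a window. The ETS core CCGGAAG occurred in 17 members (25%, against 13.4% of all genes), the YY1 core AAGATGGC in 10 (14.7%, against 3.73%), the ERR site TCAAGGTCA in 2 (2.94%, against 0.369%), and the Sp1 box GGGCGG in 28 (41.2%, against 51.7%). A match is a description of the letters only. The first 4 stretches below, each ending at the base before the start and written 5′ to 3′ on the gene's strand, are shown because each holds the palindrome that joins the NRF1 core with its own reverse complement, in genes of 3 different complexes; capitals mark that site and, in Cox6a1, also the ETS core near the start.
Ndufa11: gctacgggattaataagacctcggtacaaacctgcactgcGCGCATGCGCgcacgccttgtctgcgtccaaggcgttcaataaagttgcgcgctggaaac
Cox6a1: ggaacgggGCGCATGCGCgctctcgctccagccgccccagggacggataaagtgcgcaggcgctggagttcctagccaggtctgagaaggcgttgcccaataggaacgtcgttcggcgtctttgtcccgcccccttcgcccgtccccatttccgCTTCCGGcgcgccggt
Atp5g2: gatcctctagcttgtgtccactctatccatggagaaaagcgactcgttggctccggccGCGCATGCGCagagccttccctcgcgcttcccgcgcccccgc
Atp5k: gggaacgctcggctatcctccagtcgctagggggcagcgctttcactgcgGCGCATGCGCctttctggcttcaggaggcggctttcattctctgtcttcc
The next 2 belong to genes that were 2-fold higher in high glucose and hold neither core before the start; Ndufs8 has the ETS core just after it.
Ndufs8: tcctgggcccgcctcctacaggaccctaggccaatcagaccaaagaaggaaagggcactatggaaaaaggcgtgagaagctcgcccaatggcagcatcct
Uqcrfs1: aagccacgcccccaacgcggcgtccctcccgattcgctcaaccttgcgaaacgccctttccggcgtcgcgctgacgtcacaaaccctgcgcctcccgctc
In GRCm38.p6 they lie at chr17:56717662-56717761 on the plus strand (Ndufa11), and on the minus strand at chr5:115348959-115349128 (Cox6a1), chr15:102671048-102671147 (Atp5g2), chr5:108434400-108434499 (Atp5k), chr19:3912775-3912874 (Ndufs8) and chr13:30545317-30545416 (Uqcrfs1). In high glucose against normal glucose the 10 members with the NRF1 core had a median log2 difference of 0.20 and the 57 measured members without it 0.29; with DKK2 against high glucose the medians were 0.19 and 0.16.

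Of the 84 genes, 82 were above background on all 3 arrays, beside 16653 of the 20886 genes named on the arrays. The exceptions were Cox7b2 and Cox8c, isoforms known from testis, which were not well above background on any array. The median processed signal of the 82 members, before scaling, was 18252, 45103 and 53116. In 56 of the 82 (68.3%) the scaled signal was lowest in normal glucose, intermediate in high glucose and highest with DKK2, an order found in 32.4% of the 16653 genes above background on all arrays and in 36.4% of the 6136 genes at or above the 75th percentile on all arrays. The opposite order was found in 2 members (2.44%) and in 19.0% of all genes.

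**Figure D1:**
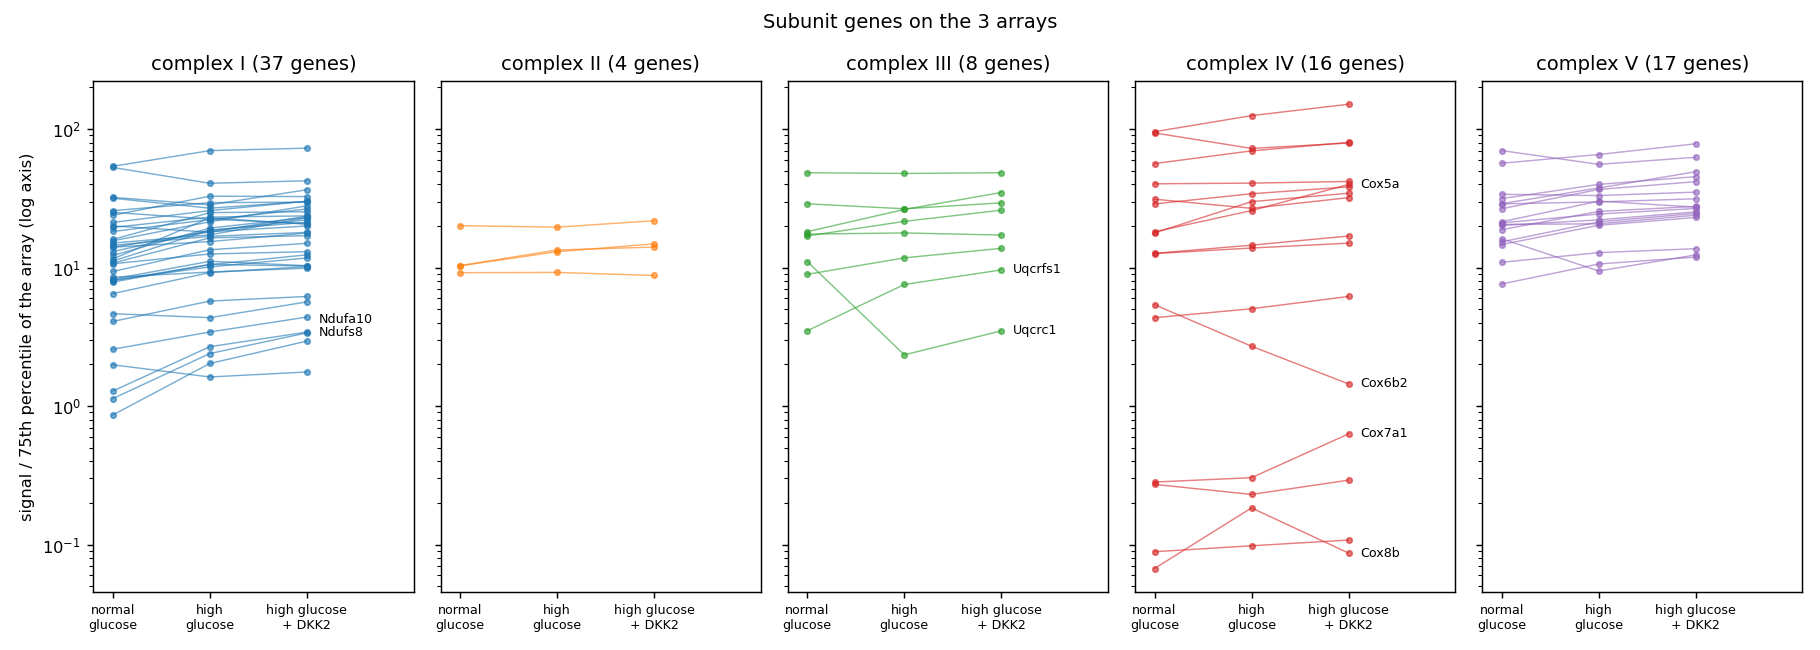
Scaled signal (signal over the 75th percentile of the array, log axis) of the 82 measured subunit genes on the 3 arrays, 1 line per gene and 1 panel per complex, with names beside selected genes that were 2-fold apart in a comparison. Most lines climb gently from left to right, 56 of 82 through all 3 arrays, while Uqcrc1 and Cox6b2 go down from normal glucose; heights of different lines are signals of different probes and are not compared.

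In high glucose against normal glucose the members were mostly a little higher. Their median log2 difference was 0.28, beside 0.09 over all 16771 genes measured and 0.15 over the bright genes, those at or above the 75th percentile on all arrays. Of the 82 members 64 lay above 0 (78.0%; background 56.4%). Of the 82, 5 were 2-fold higher (background 2.67%) and 1 was 2-fold lower (background 5.72%). Of the bright genes 1.21% were 2-fold higher and 2.48% lower. The difference was larger than 2 technical SDs for 29 members on the higher side (35.4%; background 24.2%, and 27.3% of the bright genes) and 3 on the lower side (3.66%; background 19.4%, and 14% of the bright genes), and within it for 50. Under normexp background correction the split of all genes moved from 448 higher and 960 lower to 172 higher and 3932 lower. Their median moved to -0.26, while the median of the members was 0.38. With median scaling and quantile normalization the median of all genes was 0.13 and 0.07, and that of the members 0.33 and 0.25. Normexp added an offset of 50, beside median probe signals of 102 in normal glucose and 196 in high glucose. The part of the offset in this shift of all genes was not tested.

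With DKK2 in high glucose against high glucose the differences were smaller. The median of the members was 0.18, beside 0.08 over all 17825 genes and 0.06 over the bright genes. Of the 82 members 72 lay above 0 (87.8%, background 57.6%). Of the bright genes 58.0% lay above 0. Of the 80 cytosolic ribosome genes 70 did so (87.5%), near the share of the members, with a median of 0.10. Only Cox7a1 was 2-fold higher (background 5.08%) and only Cox8b was 2-fold lower (background 4.85%). Of the bright genes 1.66% were 2-fold higher and 1.76% lower, so that both counts were near those of the bright genes. The difference passed 2 technical SDs on the higher side for 7 members (8.54%, background 19.8%, and 14.4% of the bright genes). On the lower side 2 passed it (2.44%, background 16.3%, and 11.1% of the bright genes), and 73 were within it. With quantile normalization the median was 0.06 and 54 members lay above 0 (65.9%, beside 52.3% of all genes), so the sign of small differences in this comparison depended on the scaling.

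With DKK2 in high glucose against normal glucose the median of the members was 0.44, beside 0.12 over all 16676 genes and 0.18 over the bright genes. Of the 82 members 70 lay above 0 (85.4%; background 56.5%), 6 were 2-fold higher (background 10.5%) and 2 were 2-fold lower (background 10.4%). Of the bright genes 7.04% were 2-fold higher and 4.79% 2-fold lower, so that the higher count was near that of the bright genes. The difference passed 2 technical SDs on the higher side for 43 members (52.4%; background 32.3%, and 34.5% of the bright genes) and on the lower side for 2 (2.44%; background 24.3%, and 17.4% of the bright genes). Under normexp the split of all genes moved from 1744 higher and 1727 lower to 938 and 4005. Their median was then -0.25 and that of the members 0.54, and 7 members were 2-fold higher (8.54%, beside 5.63% of all genes). With median scaling and quantile normalization the medians were 0.12 and 0.05 over all genes and 0.44 and 0.30 over the members. The members 2-fold higher were then 7.32% and 6.10%, beside 10.6% and 9.31% of all genes.

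Other size rules gave counts that are read against their own background. At 1.5-fold, 11 members were higher in high glucose against normal glucose (background 14%) and 3 lower (background 13.6%), so that the higher count was at the share of all genes. With DKK2 against high glucose 2 were higher (background 13.1%) and 2 lower (background 11.3%), and with DKK2 against normal glucose 29 were higher (background 24.2%) and 2 lower (background 19.2%). At 3-fold, none was higher in high glucose against normal glucose (background 0.626%) and 1, Uqcrc1, was lower (background 1.93%). None was 3-fold higher (background 1.59%) or lower (background 1.8%) with DKK2 against high glucose. With DKK2 against normal glucose 1 was 3-fold higher (background 3.44%) and 2, Uqcrc1 and Cox6b2, were 3-fold lower (background 4.49%).

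**Figure D2:**
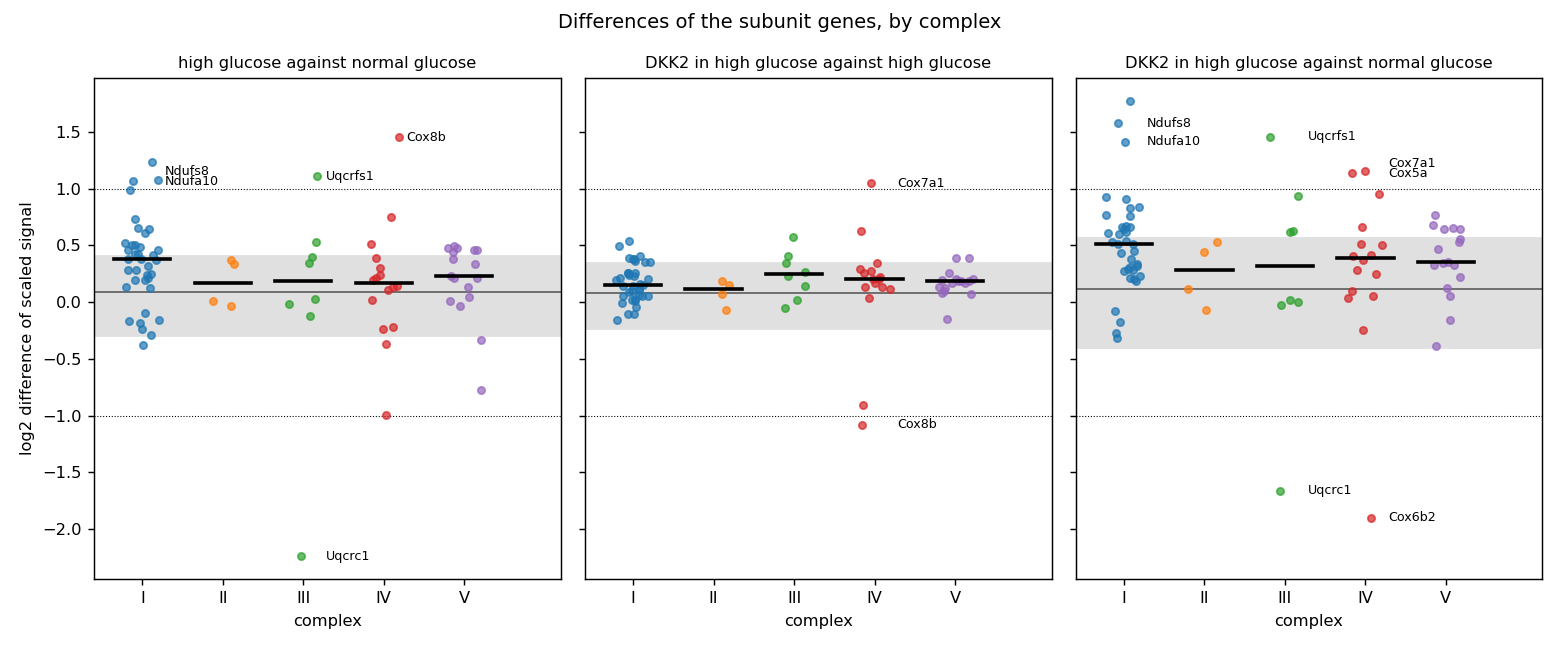
Log2 difference of scaled signal for each subunit gene (points) by complex in the 3 comparisons, with the median of each complex as a black bar, the median and interquartile range of all measured genes as a grey line and band, and dotted lines at 2-fold. The medians of the complexes lie above the grey line in each panel, and the named points are selected members past 2-fold.

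Complex I, the NADH dehydrogenase that feeds electrons into the chain, had the largest group. Its 37 genes had medians of 0.38 in high glucose against normal glucose, 0.15 with DKK2 against high glucose and 0.51 with DKK2 against normal glucose. Above 0 lay 30, 32 and 33 of them (81.1%, 86.5% and 89.2%), beside 56.4%, 57.6% and 56.5% of all genes. The 7 nuclear-encoded core subunits carry the chain of electron transfer through the complex. All 7 lay above 0 in each comparison, with medians of 0.38, 0.24 and 0.62. The third difference is the sum of the other differences, so a gene above 0 in both of those is above 0 there too. The 28 accessory subunits, which surround and stabilise the core, had medians of 0.37, 0.15 and 0.51.

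Ndufs8, a core subunit that carries iron-sulphur clusters, had scaled signals of 1.13, 2.40 and 3.38, with log2 differences from normal glucose of 1.08 (technical SD 0.20) in high glucose and 1.58 with DKK2. The accessory subunit gene Ndufa10 was at 1.28, 2.69 and 3.42 (1.06 and 1.41 from normal glucose). Both were lowest in normal glucose and highest with DKK2.

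Several core subunits differed less. Ndufs1, the largest iron-sulphur subunit, was at 8.06, 10.5 and 12.4 (0.38 in high glucose). Ndufv1, which binds NADH and the flavin, was at 13.1, 18.6 and 22.1 (0.51). Ndufs3, Ndufs7 and Ndufv2 had differences of 0.13, 0.22 and 0.24 in high glucose, all within 2 technical SDs. Of the accessory genes, Ndufb8 was at 11.2, 18.6 and 21.3 and Ndufs5 at 12.2, 19.3 and 23.0, with differences of 0.74 and 0.66 in high glucose. Ndufa7 was at 52.9, 40.7 and 42.4 (-0.38 in high glucose), and Ndufa5 at 25.1, 22.4 and 20.8 (-0.16, and -0.15 on its second probe), both within 2 technical SDs. Ndufa13 was at 53.9, 70.0 and 72.9.

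Ndufa4, named as a complex I gene but known as a component of complex IV, was at 11.5, 22.9 and 20.6, a difference of 0.99 in high glucose (past 2-fold at 1.16 with normexp and at 1.03 with median scaling) and -0.15 with DKK2. Ndufa4l2, its paralogue known as a hypoxia-induced gene, was at 1.99, 1.62 and 1.76, within 2 technical SDs in each comparison.

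Complex II, succinate dehydrogenase, is the enzyme shared with the TCA cycle and is wholly nuclear-encoded. Its 4 genes had medians of 0.17, 0.11 and 0.28 in the 3 comparisons, and none passed 2-fold. The flavoprotein gene Sdha was at 10.3, 13.4 and 14.1, the iron-sulphur gene Sdhb at 20.1, 19.6 and 21.8, and the membrane anchor genes Sdhc and Sdhd at 9.19, 9.23 and 8.77 and at 10.3, 13.0 and 14.8. Only Sdhd with DKK2 and Sdha with DKK2 passed 2 technical SDs against normal glucose (0.53 and 0.44). The probes of Sdhc disagreed, with 0.01 on the probe used and 0.46 on the other in high glucose.

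Complex III passes electrons from ubiquinol to cytochrome c. Its 8 genes held both a member with one of the larger positive differences and the member with the largest negative one. Uqcrfs1, the Rieske iron-sulphur protein, was at 3.50, 7.56 and 9.62, a difference of 1.11 in high glucose and 1.46 (2.75-fold) with DKK2 against normal glucose. Uqcrc1, a core protein of the same complex, was at 11.1, 2.35 and 3.49, so that it was lower by a log2 difference of -2.24 in high glucose, 0.57 higher with DKK2 than without, and at -1.66 between the outer arrays. It is read by 1 probe on 1 spot, and it remained 2-fold lower in both comparisons with normal glucose under each alternative processing run.

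Uqcrc2, the partner core protein, is read by a probe spotted 10 times. Its spots lay between 8.14 and 9.34 in normal glucose, between 10.6 and 12.5 in high glucose and between 12.4 and 15.3 with DKK2. These are repeat spots of 1 probe on 1 array per condition, so their ranges describe spot noise within an array. They are not replicates of a condition. The difference was 0.40 in high glucose and 0.62 with DKK2 against normal glucose (technical SD 0.06 for each), in the direction opposite to that of Uqcrc1. That SD takes the spots as independent and leaves out error shared by an array. Of the small subunits, Uqcrq was at 18.2, 26.3 and 34.9 and Uqcr10 at 16.9, 21.6 and 26.0. Uqcrh, at 48.4, 47.9 and 48.4, Uqcrb, at 17.5, 17.8 and 17.2, and Uqcr11, at 28.9, 26.6 and 29.4, stayed within 1 technical SD in all comparisons.

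Complex IV, cytochrome c oxidase, hands the electrons to oxygen and is the complex with most tissue-specific isoforms. Its 16 measured genes had medians of 0.17, 0.20 and 0.39. Of the 10 genes of the ordinary isoforms, 8, 10 and 9 lay above 0 in the 3 comparisons (background 56.4%, 57.6% and 56.5%). Their medians were 0.23, 0.21 and 0.46. Cox5a was at 18.2, 25.8 and 39.9 and was 2-fold higher with DKK2 against normal glucose (1.13, and 0.98 with quantile normalization). Cox5b was at 17.8, 30.0 and 34.4 (0.75 in high glucose), Cox6a1 at 95.8, 125 and 151, and Cox4i1 at 56.4, 69.7 and 80.2. Cox8a was at 94.0, 72.6 and 79.4, with -0.37 on the probe used and -0.64 on its second probe in high glucose. Cox7a2l, which encodes an assembly factor of respiratory supercomplexes, was at 40.3, 40.8 and 41.9, and Cox7a2 was at 12.7, 14.5 and 16.9. Another probe of Cox7a2l was at 4.89, 6.14 and 8.24, with differences of 0.33, 0.42 and 0.75 in the 3 comparisons. Its remaining probe gave 0.15, 0.05 and 0.20.

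The isoforms known from particular tissues moved apart from each other. Cox6b2, known from testis, was at 5.40, 2.71 and 1.45, a difference of -0.997 in high glucose (just short of 2-fold, and past it at -1.12 with quantile normalization) and -1.90 (technical SD 0.20) with DKK2 against normal glucose, the order opposite to most members. Cox7a1, the heart and skeletal muscle isoform that brown fat also uses, was at 0.283, 0.304 and 0.629, 1.05 higher with DKK2 than in high glucose and 1.15 higher than in normal glucose (0.86 with normexp). Cox8b, also of muscle and brown fat, was at 0.0671, 0.184 and 0.0868, so that it was high in high glucose only (1.45 against normal glucose and -1.08 with DKK2 against high glucose). With normexp these were 0.29 and -0.86, so that neither was 2-fold. Cox6a2, a muscle isoform, was at 0.0888, 0.0980 and 0.108, and Cox4i2, known from lung and as an oxygen-responsive isoform, at 0.272, 0.230 and 0.292.

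Markers of muscle and fat moved on the same arrays. Of 12 skeletal muscle markers 11, 12 and 9 were above background on the 3 arrays, beside 76.6%, 84.7% and 83.9% of all probes. Their summed scaled signals were 2.53, 2.27 and 0.800. All 10 adipocyte markers were above background, with sums of 26.0, 33.3 and 16.6. In high glucose against normal glucose 8 of 11 measured skeletal muscle markers lay above 0 (background 56.4%), with a median of 0.20. The list moved both ways, with Myh2 at 1.47 and Ttn at 1.02 but Myh4 at -1.09 and Tnnt3 at -0.71. Acta1, which makes up much of the sum, was at -0.72. Of the adipocyte markers 9 of 10 lay above 0, with a median of 0.34. Against high glucose the medians of the 2 lists with DKK2 were -1.12 (9 measured, 2 above 0) and -1.48 (10 measured, 3 above 0). Cox8b was highest in high glucose, as was the sum of the adipocyte markers, while the sum of the skeletal muscle markers was highest in normal glucose. Cox7a1 was highest with DKK2, where both sums were lowest. The part of these cell types in either value was not tested.

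**Figure D3:**
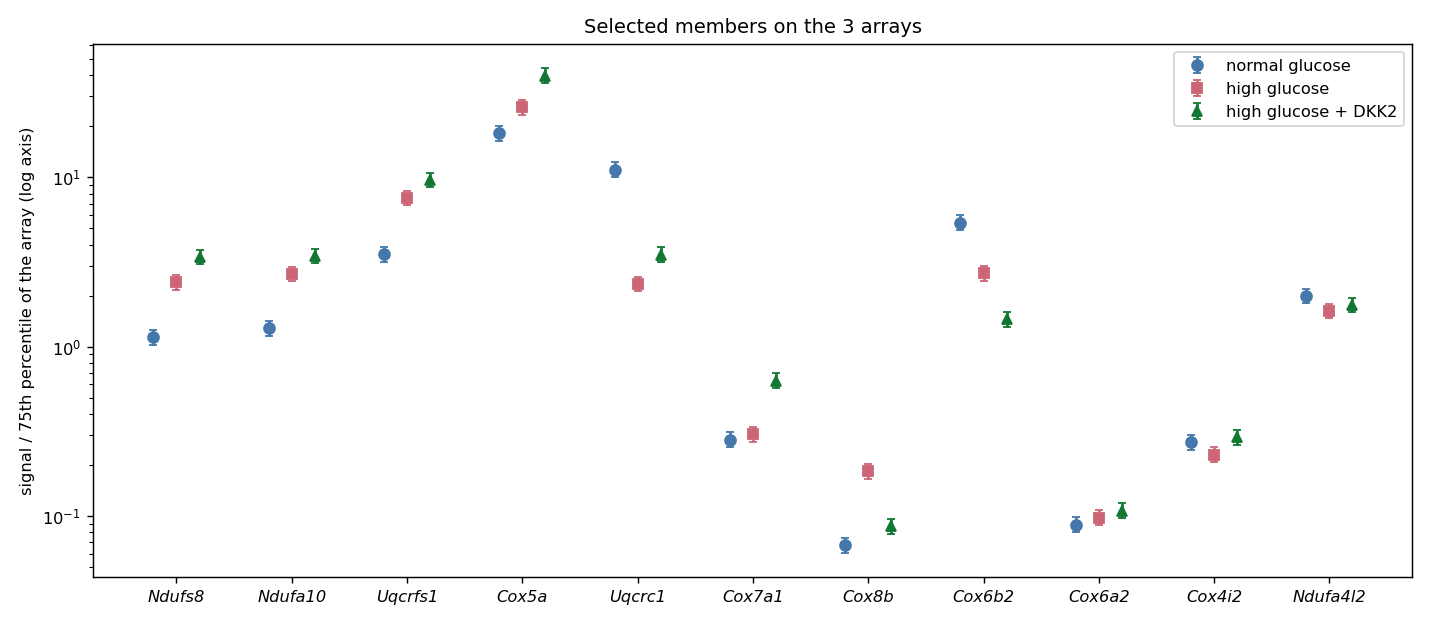
Scaled signal (log axis) on the 3 arrays of selected members that were 2-fold apart in a comparison and of 3 further tissue-restricted isoforms; bars are 1 technical SD of a single array. Ndufs8, Ndufa10, Uqcrfs1 and Cox5a are ordered normal glucose, high glucose, DKK2 from low to high, and Cox6b2 the other way round.

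In complex V, the ATP synthase, no member passed 2-fold in any comparison. Its 17 genes had medians of 0.23, 0.19 and 0.35, and 14, 16 and 15 of them lay above 0 (background 56.4%, 57.6% and 56.5%). In the catalytic F1 head, Atp5a1 (alpha subunit) was at 21.4, 30.2 and 27.3, Atp5b (beta subunit) at 56.7, 65.6 and 78.4 and Atp5c1 (gamma subunit) at 18.8, 25.5 and 27.7. Atp5d, the delta subunit of the same head, was the exception at 16.2, 9.45 and 12.4, a difference of -0.77 in high glucose. The 4 peripheral stalk genes Atp5pb, Atp5h, Atp5j and Atp5o all lay above 0 in each comparison, with medians of 0.41, 0.18 and 0.59.

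The c-ring, the rotor through which protons pass, is encoded by 3 genes for the same mature protein. Atp5g1 was at 20.2, 22.1 and 25.3 and Atp5g3 at 26.6, 36.7 and 41.8, while Atp5g2 was at 70.0, 55.7 and 62.7. In high glucose Atp5g3 was thus at 0.46 and Atp5g2 at -0.33 (-0.17 on its second probe). Of the other membrane subunits, Atp5l was at 29.0, 37.6 and 49.3. Each of its 5 probes gave a positive difference in all 3 comparisons.

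The 9 members past 2-fold in any comparison on the probe used were all read by 1 probe on 1 spot. For 22 other members, several probes were above background. In 18, 17 and 19 of these, in the order of the comparisons above, all probes lay on one side of 0. Across these 22 genes, the differences on the probe used and on the next probe correlated at Pearson's r of 0.66, 0.44 and 0.78, beside 0.22, 0.64 and 0.42 across 4294 genes. These are descriptions across genes, which share the arrays and are not independent replicates. Ndufv3 had probes on opposite sides in high glucose (0.19 and -0.68), and so had Ndufb5 (0.43 and -0.09). On probes that were not used, Uqcr10 and Ndufb11 also passed 2-fold with DKK2 against normal glucose, at 1.32 and 1.09.

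**Figure D4:**
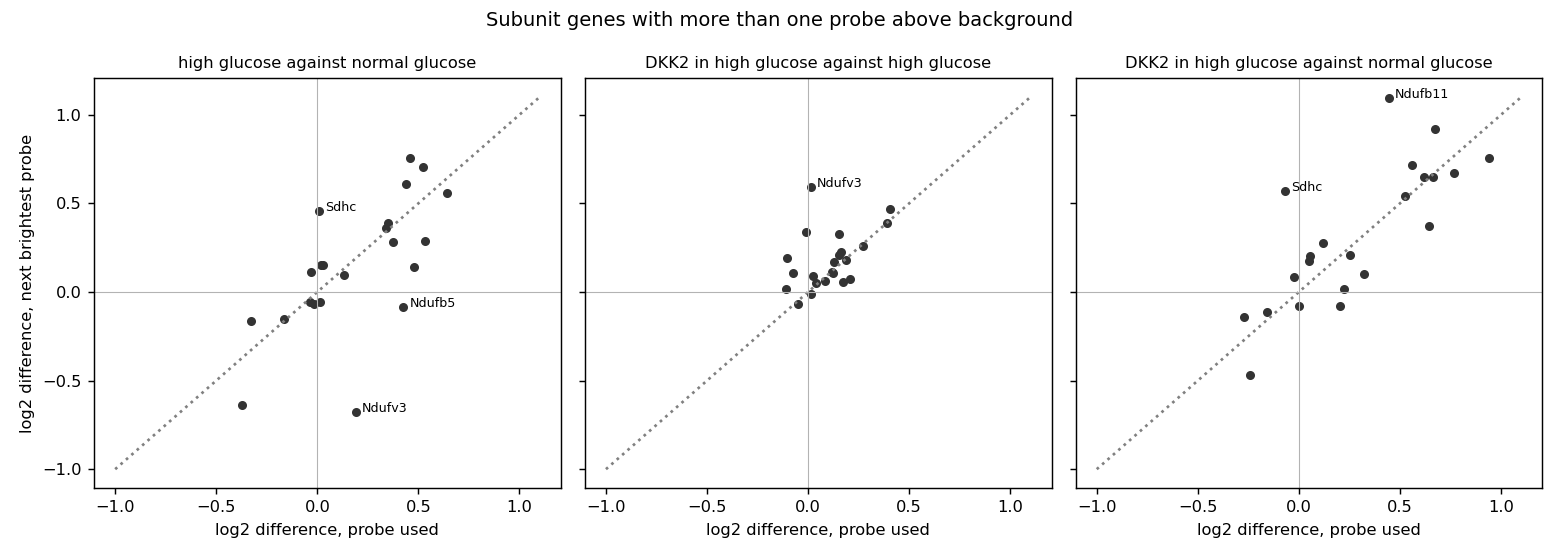
Log2 difference on the probe used for a gene (horizontal) against that on its next brightest probe (vertical) for the 22 subunit genes with several probes above background, in the 3 comparisons, with the line of equality dotted. Most points lie in the upper right, and Ndufv3, Ndufb5 and Sdhc stand off the line in high glucose against normal glucose.

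Among the other genes of the pathway, 3 lists of mitochondrial proteins had medians near those of the subunits. The 44 assembly factors had medians of 0.36, 0.14 and 0.51, with 2, 0 and 5 members 2-fold higher and 1, 0 and 0 lower. Beside backgrounds of 2.67%, 5.08% and 10.5% of all genes higher, the 5 (11.4%) were near the share of all genes, and the count of 0 with DKK2 against high glucose was under it. The shares of all genes 2-fold lower were 5.72%, 4.85% and 10.4%. Ndufaf2 and Acad9, assembly factors of complex I, were at 1.13 and 1.03 in high glucose, and Timmdc1, another, was at -1.09. Cox17, a copper chaperone of complex IV, and Foxred1 were at 1.38 and 1.30 with DKK2 against normal glucose. The processed signals of Cox17 were low, at 29.6, 92.6 and 155. Of the mitochondrial ribosomal protein genes, which make the subunits encoded in mitochondrial DNA, 66 of 77, 68 of 78 and 70 of 77 lay above 0, with medians of 0.39, 0.22 and 0.58 and with 3, 1 and 10 genes 2-fold higher (3.90%, 1.28% and 13.0%) and none lower. The shares of all genes above 0 were 56.4%, 57.6% and 56.5%. Mrps9 was at 1.14 and Mrps5 at 1.03 in high glucose, and Mrps6 at 1.27 with DKK2 against high glucose. The 18 TCA cycle genes had medians of 0.31, 0.16 and 0.37, and only Pdhb, a pyruvate dehydrogenase subunit, passed 2-fold (1.03 with DKK2 against normal glucose).

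The genes of electron carriers and ATP export, of which 24, 26 and 24 were measured, had medians of 0.10, 0.07 and 0.07. Cycs (cytochrome c) was at scaled signals of 7.35, 11.6 and 16.3, Cyc1 (cytochrome c1 of complex III, outside the symbol rule) at 4.68, 7.15 and 10.9, Slc25a3 (the mitochondrial phosphate carrier) at 9.11, 14.8 and 21.8 and Slc25a5 (an ADP/ATP carrier) at 2.71, 4.01 and 6.02. Each of these 4 was 2-fold higher with DKK2 against normal glucose, at 1.15, 1.21, 1.26 and 1.15. They were 16.7% of the 24 genes measured there, beside 10.5% of all genes. Ucp2, an uncoupling protein gene, was at -1.26 in high glucose (4.17% of the list 2-fold lower, beside 5.72% of all genes). The processed signals of Ucp2 were low, at 86.2, 71.1 and 137. Ucp1, the uncoupling protein of brown fat, was above background on the high glucose and DKK2 arrays only and 2.26 higher with DKK2 between these. Its processed signals there were low, at 13.8 and 67.1.

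The 19 regulators of mitochondrial biogenesis had medians of 0.12, -0.08 and -0.04. Above 0 lay 10, 7 and 9 of them (background 56.4%, 57.6% and 56.5%). None was 2-fold higher, and 0, 1 and 2 were 2-fold lower (0%, 5.26% and 10.5%, beside 5.72%, 4.85% and 10.4% of all genes). Esrrg, an oestrogen-related receptor gene, was at 0.0565, 0.0485 and 0.0132 (-1.88 with DKK2 against high glucose), and the coactivator gene Ppargc1b at 0.126, 0.0733 and 0.0554 (-1.19 with DKK2 against normal glucose). The processed signals of both were low, at 67.8, 115 and 31.9 and at 152, 174 and 134. The genes of the cytosolic ribosome, set beside the members as other bright genes, had medians of 0.04, 0.10 and 0.12. Of these genes 55.7%, 87.5% and 64.6% lay above 0, beside 78.0%, 87.8% and 85.4% of the members. Rps15 among them was at 136, 52.0 and 54.3. A short list of genes linked to hypoxia, which shares Cox4i2 and Ndufa4l2 with the members, had medians of 0.46, 0.32 and 0.80 over 7 genes. Ldha, which makes lactate, was at 36.2, 59.7 and 94.1, Bnip3, a mitophagy receptor gene, at 4.76, 8.88 and 11.1 and Higd1a at 6.59, 7.80 and 13.7. Each of these 3 was 2-fold higher with DKK2 against normal glucose (42.9% of the 7, beside 10.5% of all genes).

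**Figure D5:**
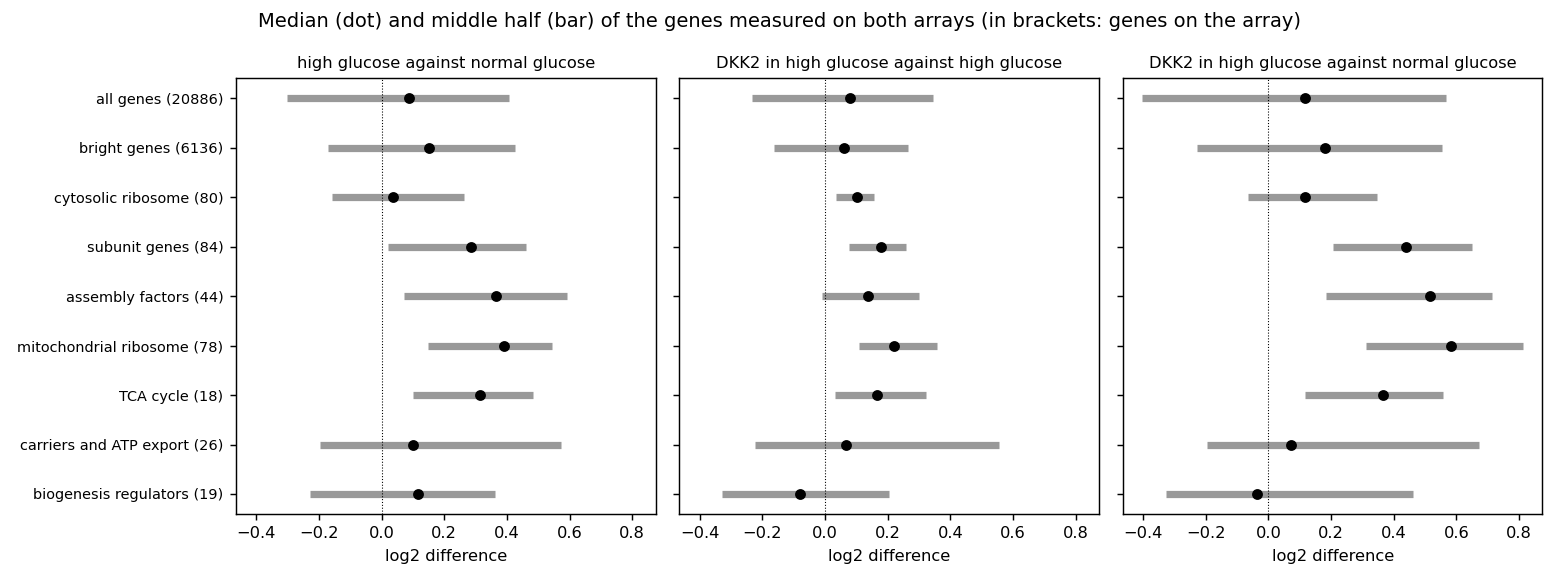
Median (dot) and interquartile range (bar) of the log2 differences of the subunit genes, 5 other mitochondrial lists, the cytosolic ribosome, the bright genes and all genes in the 3 comparisons. The subunit genes, assembly factors, mitochondrial ribosome and TCA cycle lie to the right of all genes in each panel, and the biogenesis regulators do not do so with DKK2.

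Macrophage markers moved on the same arrays as well. All 9 with a probe above background were higher with DKK2 than in high glucose (57.6% of all genes), with a median of 1.46. The summed scaled signal of the list, mostly that of Itgam, was however 26.9, 18.4 and 23.8. No named probe was matched to Cd68, so that it was not read. All 7 fibroblast markers lay below 0 in that comparison, with a median of -0.62. The part of these cell types in the differences of the members was not tested.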

How the data were processed

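The files hold scanner output of 1-colour (Cy3) Agilent arrays, 1 per condition, quantified by the authors with Feature Extraction 11.5.1.1 per the file headers, as a processed signal intensity per spot that is corrected for background. The deposited value table gave the same intensity to a tolerance of 0.001 as a fraction in 99.7% of probes. Control spots (1377 per array) and outlier spots (110, 115 and 136) were left out, and no spot was saturated. Log2 signals were centred on each array's 75th percentile and averaged over spots. Detection of a probe asked that 50% or more of its spots be well above background.

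Probes were named through accessions in a RefSeq table of GRCm38.p6, used for names only, since the file headers give mm9: 27508 of 39429 probes matched 1 gene and 11921 none. A gene was read on its brightest probe above background on at least 1 array. Between 76.6% and 84.7% of probes were above background per array. The number of arrays limits the precision.

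Members, lists and rules were chosen with earlier results of these data known. Named are members past 2-fold, the largest differences and the highest signal per complex, fixed core subunits and isoforms, and up to 6 list genes past 2-fold per comparison. One member that the rule names is counted but not reported here. Counting was tested on simulated data. Tools were Python 3.11.15, numpy 2.4.6, pandas 2.3.3, scipy 1.17.1, matplotlib 3.10.9, R 4.3.3 and limma 3.58.1 (normexp with offset 50 on median signals, and quantile normalization). Further alternatives were median scaling, no or a stricter filter on dim probes (signal of at least 100), the deposited table, averaging a gene's probes, leaving out the tissue-restricted isoforms, and 1.5-fold and 3-fold rules.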

Additional observations from a re-analysis of the deposited data

How the results depend on the processing

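The median difference of the members stayed above 0 in all 3 comparisons under each alternative run and moved by less than 1 technical SD (0.20). It ranged from 0.25 to 0.38 in high glucose against normal glucose, from 0.06 to 0.19 with DKK2 against high glucose and from 0.30 to 0.54 with DKK2 against normal glucose. The counts past the size rule were small and moved with it. With a 1.5-fold rule 11 members were higher and 3 lower in high glucose, 2 higher and 2 lower with DKK2 against high glucose, and 29 higher and 2 lower with DKK2 against normal glucose. With a 3-fold rule 0, 0 and 1 were higher and 1, 0 and 2 lower in that order of comparisons. With the 2-fold rule, the 1 lower member with DKK2 against high glucose was Cox8b. It was lost (0 lower) with normexp and with the stricter filter, which left it out. Normexp also took Cox7a1 below 2-fold and Cox5b and Ndufb8 past it with DKK2 against normal glucose, where quantile normalization took Cox5a below it, and Ndufa4 passed 2-fold in high glucose with normexp and median scaling. With quantile normalization 2 members were lower in high glucose, Cox6b2 being the second. The sign of 18 of 82 members changed with quantile normalization in DKK2 against high glucose, and of at most 7 under the other alternatives and comparisons. No difference of at least 2-fold changed sign. No replicate could be left out, and no paired analysis was possible because each condition was 1 array of pooled RNA.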
